A study of Mus musculus with 3 samples.

Results

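The 10 genes described here make serine and its one-carbon products, or belong to the transcriptional response to a lack of amino acids that is run by the factor ATF4. They are Phgdh, Psat1, Psph, Shmt2, Mthfd2, Asns, Chac1, Trib3, Ddit3 and Atf4, 10 of the 19316 genes named on the array. The set was chosen by measured values, because Phgdh ranked high on the CTLA-4-Ig array, so the values of Phgdh are given as a description and carry no test. The other 9 genes are listed for their place in the pathway, and all of them are given, whichever way they differed.

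Gene expression was measured in synovial cells from the inflamed joints of arthritic D1BC mice, on 1 array for each of 3 conditions after 48 h in culture. The cells received CTLA-4-Ig (abatacept, a fusion of the extracellular part of human CTLA-4 with a modified human IgG1 Fc, which binds CD80 and CD86), human IgG (hIgG), or vehicle (DMEM with 10% FBS). The titles of the CTLA-4-Ig and hIgG samples state 100 µg, and the question asked of the arrays was which genes CTLA-4-Ig alters in these cells. D1BC mice have a DBA/1 background and carry the B7.1 (CD80) gene under the rat type II collagen promoter and enhancer, in all 3 conditions alike, and their arthritis was induced with a low dose of bovine type II collagen. The labels do not state whether the 3 cultures came from the same, different or pooled mice, nor the age or sex of the mice. With 1 culture per condition there is no replicate, no SD and no test, and every difference below compares 3 arrays and not the conditions.

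The labels call the cells primary fibroblast like synoviocytes. All 12 synovial fibroblast markers were detected, with a summed normalized signal of 35217 on the CTLA-4-Ig array, 31197 with hIgG and 32754 with vehicle. With CTLA-4-Ig set over hIgG, the log2 ratios of these markers had a median of 0.08. All 12 macrophage markers were also detected, so the cultures held macrophage transcripts as well. Cd80, listed among them, is also the gene of the D1BC transgene, and the paper found CD80 on CD45-negative synovial cells. It is thus not specific to macrophages here. Lyz2, lysozyme, had 32021 with CTLA-4-Ig, 28785 with hIgG and 27289 with vehicle. This made up most of the summed signal of the 12 macrophage markers, 41803 with CTLA-4-Ig, 39316 with hIgG and 36133 with vehicle. With CTLA-4-Ig set over hIgG, most macrophage markers did not follow that sum. The median of their log2 ratios was -0.04, and 3 of the 12, with Cd80 among these at 0.61, were above the median of all genes. With hIgG set over vehicle they did follow it, with a median of 0.19 and 11 of the 12 above the median of all genes. In that comparison the synovial fibroblast markers had a median of -0.06, with 4 of the 12 above. Of 7 T cell markers on the array 5 were detected, with sums of 39.8 with CTLA-4-Ig, 31.4 with hIgG and 34.0 with vehicle, and Cd3e and Cd3g were not detected on any array. Of the 7 pericyte and smooth muscle markers, Acta2, smooth muscle actin, had 2884 with CTLA-4-Ig, 1804 with hIgG and 2681 with vehicle and made up nearly all of their summed signal of 2969 with CTLA-4-Ig, 1878 with hIgG and 2753 with vehicle. The other 6 were low and differed among themselves. Rgs5 had 3.76 with CTLA-4-Ig, 3.7 with hIgG and 2.7 with vehicle, and Mcam had 40.1 with CTLA-4-Ig, 36.6 with hIgG and 29.0 with vehicle. Cspg4 was highest with vehicle, at 31.0 with CTLA-4-Ig, 26.6 with hIgG and 32.2 with vehicle. With CTLA-4-Ig set over hIgG, the lowest log2 ratio of the 7 was 0.02. At least 1.5-fold higher there were 3 of the 7, against 3.4% of all genes. These were Acta2 and, at low signal, Myh11 and Abcc9. The part of these marker differences in the values below was not tested. In such a mixed culture, fewer cells of a type and less RNA per cell cannot be told apart.

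Serine is made from the glycolytic intermediate 3-phosphoglycerate in a chain of steps run by PHGDH, PSAT1 and PSPH. Mitochondrial SHMT2 then splits serine into glycine and a one-carbon unit, and MTHFD2 oxidizes that unit so that it can be used for purine and thymidylate synthesis. When amino acids are scarce or unfolded protein accumulates, kinases phosphorylate the initiation factor eIF2 alpha, general translation slows, and translation of ATF4 rises. ATF4 with C/EBP partners then binds composite elements in the promoters of genes such as Asns, Chac1, Trib3 and Ddit3, and it also activates the serine synthesis genes. Because ATF4 is controlled largely at translation, its mRNA level does not by itself report the amount of the protein.

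The promoters of Phgdh, which stood furthest apart on the CTLA-4-Ig array, and of the 3 genes that carried an ATF4-type element are shown from RefSeq on GRCm38.p6, each covering 250 bases before and 50 bases after the start of the gene, 5′ to 3′ on the strand of the gene. All 10 genes matched a promoter, and Psat1 matched 2. Capitals mark TGATGNAA, the C/EBP-ATF response element, searched on both strands, its reverse being TTNCATCA. The Phgdh promoter lies at chr3:98339920-98340219 on the minus strand, Asns at chr6:7693160-7693459 on the minus strand, Chac1 at chr2:119350992-119351291 on the plus strand and Trib3 at chr2:152344011-152344310 on the minus strand.
Phgdh: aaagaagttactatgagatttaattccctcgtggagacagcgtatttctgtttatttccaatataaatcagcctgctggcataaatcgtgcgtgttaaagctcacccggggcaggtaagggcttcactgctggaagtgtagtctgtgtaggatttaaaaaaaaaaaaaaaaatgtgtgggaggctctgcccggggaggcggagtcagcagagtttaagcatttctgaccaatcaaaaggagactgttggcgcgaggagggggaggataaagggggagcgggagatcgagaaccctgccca
Asns: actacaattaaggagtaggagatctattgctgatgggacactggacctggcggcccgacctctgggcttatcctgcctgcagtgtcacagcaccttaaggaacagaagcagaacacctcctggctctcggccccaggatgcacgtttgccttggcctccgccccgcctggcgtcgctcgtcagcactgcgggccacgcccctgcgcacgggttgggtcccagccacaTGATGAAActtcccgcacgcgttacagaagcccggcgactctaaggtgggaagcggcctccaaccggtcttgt
Chac1: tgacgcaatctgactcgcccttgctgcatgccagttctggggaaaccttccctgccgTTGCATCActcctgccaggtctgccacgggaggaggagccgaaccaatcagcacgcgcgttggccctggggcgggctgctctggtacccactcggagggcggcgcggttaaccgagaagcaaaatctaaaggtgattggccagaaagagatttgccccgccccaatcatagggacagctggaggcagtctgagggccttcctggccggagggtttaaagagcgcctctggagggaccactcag
Trib3: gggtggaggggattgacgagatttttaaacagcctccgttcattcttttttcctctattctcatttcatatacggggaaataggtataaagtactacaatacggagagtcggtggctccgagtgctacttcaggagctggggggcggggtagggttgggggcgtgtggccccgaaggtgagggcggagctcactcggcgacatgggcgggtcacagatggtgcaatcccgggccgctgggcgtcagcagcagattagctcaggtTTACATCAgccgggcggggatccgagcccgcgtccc

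The element was present in 3 of the 10 genes and in 4.51% of 27025 genes (3.97% of 32851 promoters). It began 23 bases before the start in Asns on the plus strand (TGATGAAA), 193 bases before it in Chac1 on the other strand (TTGCATCA), and 15 bases after it in Trib3 on the other strand (TTACATCA). The other 7 genes, Phgdh among them, did not contain these letters in this window. With CTLA-4-Ig set over hIgG, the log2 ratio of the 3 genes with the element had a median of 0.16, and that of the 7 genes without it was 0.17. Set over vehicle, these medians were 0.07 and 0.12.

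Each of the 10 genes had 1 probe, and every probe was detected on all 3 arrays without a scanner flag. The values are normalized signals, which the authors scaled to a median of 25 on each array, and the signal of one probe cannot be set against that of another. A gene was called apart when it differed by at least 1.5-fold between 2 arrays. On the CTLA-4-Ig array, 3.4% of the 15625 genes detected on all arrays were at least 1.5-fold higher than on the hIgG array and 1.13% at least 1.5-fold lower. Relative to vehicle, CTLA-4-Ig was at least 1.5-fold higher for 4.44% of genes and at least 1.5-fold lower for 0.992%. For hIgG over vehicle, which carries no CTLA-4-Ig, the shares were 1.94% higher and 1.6% lower. The log2 ratio of hIgG over vehicle had an SD of 0.17 over the 8419 genes whose mean signal was at least 25, which gives the spread between the control arrays over genes, and is no error of any single gene. These shares move with the scaling. Higher genes made up 75.1% of the calls of CTLA-4-Ig against hIgG and 81.7% of those against vehicle with the deposited values. They made up 47.4% and 49.7% after quantile normalization, 47.8% and 47.5% after cyclic loess, and 53.4% and 61.8% when arrays were scaled by the probes detected on all of them.

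Of the 10 genes, Phgdh passed 1.5-fold in the comparison of CTLA-4-Ig with hIgG, and none passed it downwards. Against the vehicle array none of the 10 passed it in either direction, for CTLA-4-Ig or for hIgG. The highest of the 3 arrays exceeded the lowest by 1.07-fold (Ddit3) to 1.58-fold (Phgdh), and 6 of the 10 genes spanned less than 5/4.

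**Figure D1:**
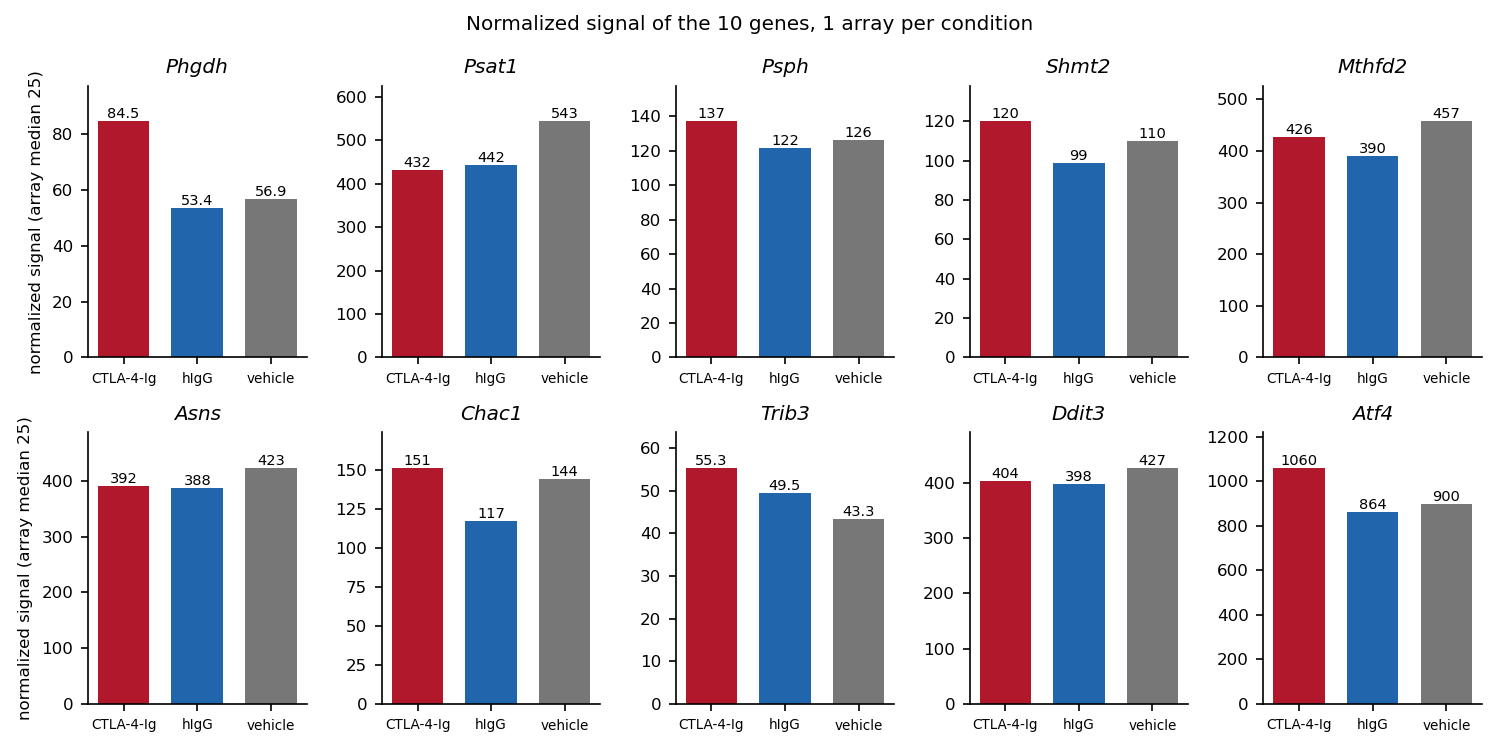
Normalized signal (linear scale, median of each array 25) of each of the 10 genes after CTLA-4-Ig, hIgG or vehicle, 1 bar per array with its value on top and each panel on its own axis from 0. Phgdh shows the widest gap, with 84.5 on the CTLA-4-Ig array against 53.4 with hIgG and 56.9 with vehicle, while Asns and Ddit3 are nearly level.

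Of the 3 serine synthesis enzymes, Phgdh was past 1.5-fold on the CTLA-4-Ig array over hIgG, and Psat1 and Psph were not. Phgdh, the first and committed enzyme of the pathway, had a normalized signal of 84.5 on the CTLA-4-Ig array, against 53.4 with hIgG and 56.9 with vehicle. The CTLA-4-Ig array was thus the high one, and the control arrays lay close together. The log2 ratio was 0.66 over hIgG (1.58-fold) and 0.57 over vehicle (1.49-fold, just under the 1.5-fold limit), while hIgG over vehicle was -0.09. Among all 15625 genes, 374 had a ratio over hIgG at or above that of Phgdh and 755 had one over vehicle. Among 4043 genes of like mean signal (within 2-fold), 0.420% were at or above Phgdh over hIgG and 0.940% over vehicle, where the SD of the log2 ratio was 0.18 and 0.20. Ordered by the smaller of their ratios over hIgG and over vehicle, Phgdh was number 6 of the 8419 genes whose mean signal was at least 25. Of those brighter genes, 63 were at least 1.5-fold higher than on the hIgG array. These ranks are what the set was selected on.

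The Phgdh spot was dim, at 3.90 times the mean of the blank spots on the CTLA-4-Ig array, 2.92 times with hIgG and 3.25 times with vehicle. The 31 probes around it on the array (within 5 columns and rows, mean signal 25 or more) had medians of 0.12 against hIgG and 0.27 against vehicle, as log2 ratios. None of the 31 was at or above Phgdh over hIgG, and 2 were over vehicle. Over the 8419 genes whose mean signal was at least 25, the median was 0.07 in both comparisons. Over vehicle, Phgdh thus lay in an area where the CTLA-4-Ig array read high, and what that did to its ratio was not tested. With the background column of the scanner subtracted by normexp, in place of the blank spots, the log2 ratio of Phgdh was 0.02 over hIgG and 0.02 over vehicle, and that column followed the spot itself (r of 0.988 to 0.997 across probes of an array).

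The other enzymes of the chain did not lie beside Phgdh. Psat1, the aminotransferase of the second step, had a normalized signal of 432 on the CTLA-4-Ig array, 442 with hIgG and 543 with vehicle. Here vehicle was the high array, and CTLA-4-Ig gave a log2 ratio of -0.03 over hIgG and of -0.33 over vehicle, while hIgG over vehicle gave -0.30. Over vehicle, 2.12% of 1654 genes of like signal were at or below Psat1, so its place in that comparison was near the low end as that of Phgdh was near the high end. The 30 probes around Psat1 had a median of -0.12 over vehicle, for CTLA-4-Ig and for hIgG. What that did to the ratio of Psat1 was not tested. Psph, the phosphatase that releases serine, had 137 on the CTLA-4-Ig array, 122 with hIgG and 126 with vehicle. Its log2 ratios, 0.17 against hIgG and 0.12 against vehicle, lay within the spread of genes of like signal (SD 0.19 in both). The 3 enzymes of one linear pathway were thus placed apart, with Phgdh above both controls, Psat1 below vehicle and Psph near the middle of all genes (66th and 52nd percentile).

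The mitochondrial one-carbon enzymes differed little. Shmt2, which transfers the one-carbon unit of serine to folate, had a normalized signal of 120.0 on the CTLA-4-Ig array, 99.0 with hIgG and 109.8 with vehicle, which gave a log2 ratio of 0.28 against hIgG and 0.13 against vehicle. Of 3752 genes of like signal, 8.96% were at or above Shmt2 over hIgG and 38.5% over vehicle. Mthfd2, the dehydrogenase and cyclohydrolase of the next steps, had 426 with CTLA-4-Ig, 390.4 with hIgG and 457 with vehicle. For Mthfd2 the CTLA-4-Ig array lay between the controls, at 0.13 over hIgG and -0.10 over vehicle, and hIgG over vehicle was -0.23.

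Of the amino acid response genes, Atf4 and Chac1 were the highest over hIgG. Atf4, the transcription factor itself, had a normalized signal of 1060 on the CTLA-4-Ig array, against 864 with hIgG and 899.6 with vehicle. Its log2 ratio was 0.29 over hIgG and 0.24 over vehicle, with 5.62% and 13.2% of 889 genes of like signal at or above it. Of the 37 probes around it, none was as high over hIgG and 4 were over vehicle. After Phgdh, Atf4 had the largest smaller ratio of the 10 genes, at place 664 of 8419. Chac1, which degrades glutathione and is among the most responsive ATF4 and CHOP targets, had 151 on the CTLA-4-Ig array, 117 with hIgG and 144 with vehicle. For Chac1 it was the hIgG array that stood apart: CTLA-4-Ig gave a log2 ratio of 0.37 over hIgG and of 0.07 over vehicle, hIgG gave -0.30 over vehicle, and 2.98% of 3524 genes of like signal were as low for hIgG over vehicle.

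Trib3, a pseudokinase that restrains ATF4 and AKT signalling, was ordered CTLA-4-Ig, hIgG, vehicle, with normalized signals of 55.3 with CTLA-4-Ig, 49.5 with hIgG and 43.3 with vehicle. Its log2 ratios were 0.16 over hIgG and 0.35 over vehicle, and 0.19 for hIgG over vehicle, the only positive one of the 10 genes in that comparison. The Trib3 spot was also dim, at 2.90 times the blank mean on the CTLA-4-Ig array, 2.78 times on hIgG and 2.71 times on vehicle. Asns, which makes asparagine and is a standard readout of ATF4 activity, had 392 with CTLA-4-Ig, 388 with hIgG and 423 with vehicle, and Ddit3, which encodes the stress factor CHOP, had 404 with CTLA-4-Ig, 398 with hIgG and 427 with vehicle. Both were nearly level, with log2 ratios over hIgG of 0.01 for Asns and 0.02 for Ddit3, and over vehicle of -0.11 and -0.08. Among the probes around Asns the median was -0.21 against hIgG and -0.22 against vehicle, so this gene lay in an area where the CTLA-4-Ig array read low, and what that did to its ratio was not tested.

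**Figure D2:**
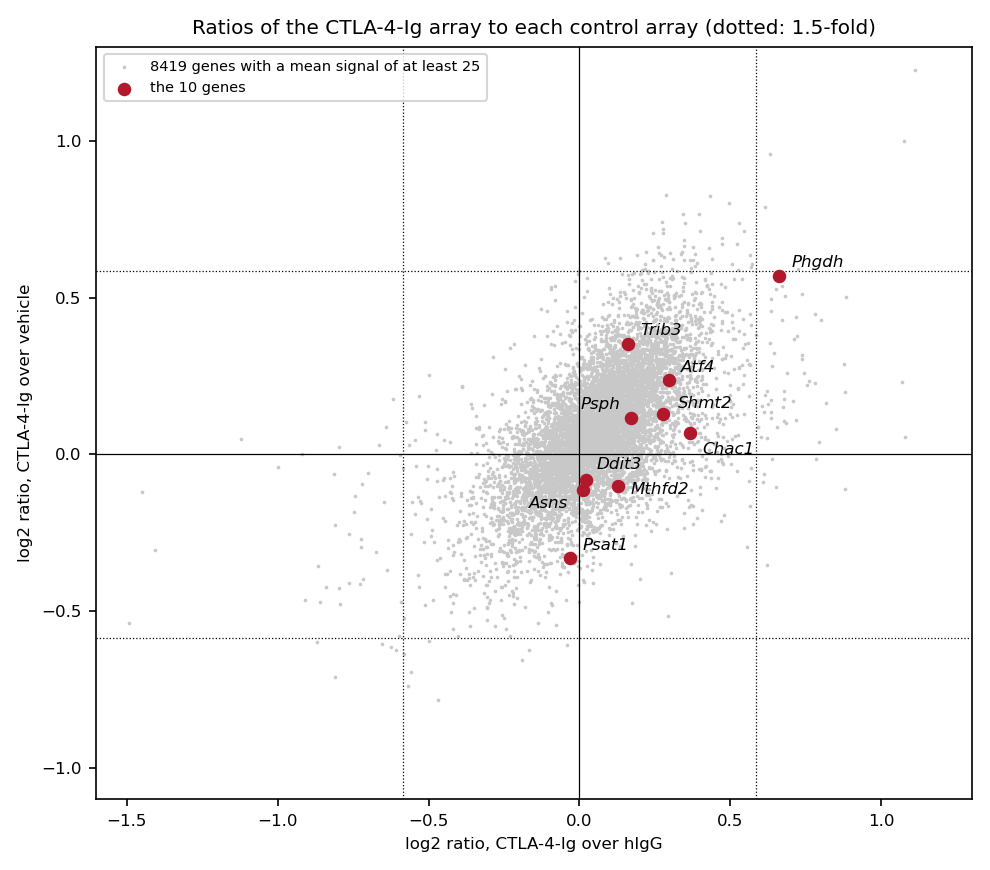
Log2 ratio of the CTLA-4-Ig array over hIgG (x axis) against that over vehicle (y axis) for the 8419 genes whose mean signal was at least 25 (grey points), the 10 genes in red and dotted lines at 1.5-fold. Both axes share the CTLA-4-Ig array, and Phgdh lies alone of the 10 at the upper right, at 0.66 and 0.57, whereas Psat1 lies lowest on the vehicle axis at -0.33.

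As a group the 10 genes had medians near those of all genes in both comparisons with CTLA-4-Ig. Over hIgG, CTLA-4-Ig gave them a median log2 ratio of 0.17, against 0.09 for all 15625 genes, and 7 of the 10 were above the median of all genes. Over vehicle its median was 0.09, against 0.11 for all genes, with 5 of the 10 above. For hIgG over vehicle it was -0.11, against 0.03 for all genes, and 1 of the 10 was above. Without Phgdh the medians were 0.16, 0.07 and -0.13 for the same 3 comparisons. The 3 comparisons share arrays, so the low values on the hIgG array enter both the first and the last of them.

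The array with the lowest and the highest signal of each gene is given here beside the same over all genes. All these counts and shares rest on the deposited scaling. Of the 10 genes, 8 had their lowest signal on the hIgG array, 1 on the CTLA-4-Ig array (Psat1) and 1 on the vehicle array (Trib3), whereas over all genes the hIgG array was lowest for 34.9%, CTLA-4-Ig for 19.2% and vehicle for 45.9%. The 8 include Asns and Ddit3, which were nearly level between CTLA-4-Ig and hIgG. With quantile normalization, cyclic loess or scaling by the probes detected on all arrays, both were lowest on the CTLA-4-Ig array. The highest signal was on the CTLA-4-Ig array for 6 genes (Phgdh, Psph, Shmt2, Chac1, Trib3 and Atf4) and on the vehicle array for 4 (Psat1, Mthfd2, Asns and Ddit3). Chac1 was highest on vehicle with cyclic loess and with scaling by the probes detected on all arrays. Over all genes the CTLA-4-Ig array was highest for 56.5%, hIgG for 23.0% and vehicle for 20.5%. ATF4 regulates many of these genes together, so they are not independent of one another.

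The wider pathway was described by lists of genes outside the 10. Of 195 such genes 182 were on the array and 177 were detected on every array. Their log2 ratios had a median of 0.08 when CTLA-4-Ig was set over hIgG, 0.07 when it was set over vehicle, and 0.01 when hIgG was set over vehicle. CTLA-4-Ig was at least 1.5-fold higher than hIgG for 3 of these genes and lower for 2, and higher than vehicle for 4 and lower for 2. The hIgG array was higher than vehicle for 1 and lower for 2. These shares were below or close to those over all genes given above.

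In the ratios that follow CTLA-4-Ig is set over each control. One-carbon and glycine metabolism, with 26 of 31 genes detected, had medians of 0.08 against hIgG and 0.09 against vehicle. Of these, Amt, the aminomethyltransferase of the glycine cleavage system, was past 1.5-fold over vehicle, at normalized signals of 5.71 on the CTLA-4-Ig array, 4.1 on hIgG and 3.4 on vehicle, at low signal. Tyms, thymidylate synthase, which consumes the one-carbon unit, had 223 with CTLA-4-Ig, 268.5 with hIgG and 253 with vehicle, the lowest on CTLA-4-Ig (log2 ratio -0.26 over hIgG and -0.18 over vehicle). Srr, serine racemase, of the same list was 78.7 on the CTLA-4-Ig array against 60.0 with hIgG and 61.3 with vehicle, with log2 ratios of 0.39 and 0.36. The 15 genes that use serine for lipids and sulfur had medians of 0.10 and 0.05. Among them Cth, the lyase that makes cysteine, was 39.3 against 30.9 with hIgG and 31.1 with vehicle (0.35 and 0.34). Serinc4, named as a serine incorporator, was lower, at 2.71 against 4.9 with hIgG and 4.1 with vehicle (-0.86 and -0.60). These signals were low, and with log2(signal + 1) the ratio over hIgG was -0.67.

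The 16 amino acid transporters detected had median log2 ratios of 0.11 against hIgG and 0.18 against vehicle. Slc7a11, the cystine and glutamate exchanger and a known ATF4 target, had normalized signals of 9.16 on the CTLA-4-Ig array, 6.4 on hIgG and 5.9 on vehicle (0.52 over hIgG and 0.63 over vehicle), at low signal. With log2(signal + 1), which also averages in undetected probes of a gene as 0 signal, its ratio over hIgG was 0.23. Slc7a3, a cationic amino acid transporter, had 3.92 with CTLA-4-Ig, 2.5 with hIgG and 3.2 with vehicle, at low signal. Slc36a4 had 19.3 with CTLA-4-Ig, 16.9 with hIgG and 12.8 with vehicle, so neither of these 2 was past 1.5-fold over both controls. The 19 cytosolic tRNA synthetases detected, many of which ATF4 induces, had medians of 0.13 and 0.14. Bright ones lay on either side: Yars, the tyrosine enzyme, had 405 with CTLA-4-Ig, 333 with hIgG and 330 with vehicle, and Iars, the isoleucine enzyme, had 444 with CTLA-4-Ig, 468 with hIgG and 512 with vehicle. Aars was past 1.5-fold over both controls, but at 1.84 with CTLA-4-Ig, 1.1 with hIgG and 1.2 with vehicle it was near the limit of detection.

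The 29 detected ATF4 targets of a further list had medians of 0.15 against hIgG and 0.12 against vehicle. Ddit4, an inhibitor of mTORC1, had normalized signals of 445 on the CTLA-4-Ig array, 470 with hIgG and 306 with vehicle. Ddit4 was thus high on both Fc-protein arrays, with a log2 ratio over vehicle of 0.54 for CTLA-4-Ig and 0.62 for hIgG, and near level between them at -0.08. Rbpms2 (6.34 with CTLA-4-Ig, 3.9 with hIgG and 6.7 with vehicle) and Avil (1.92 with CTLA-4-Ig, 1.7 with hIgG and 3.1 with vehicle) were also past 1.5-fold in at least 1 comparison, both at low signal.

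The kinases and phosphatases of eIF2 alpha and its exchange factor, 17 genes detected, had medians of 0.08 and 0.01 and no gene past 1.5-fold with the deposited values. Eif2b2, a subunit of the exchange factor, had normalized signals of 155 on the CTLA-4-Ig array, 123 on hIgG and 109 on vehicle, and Eif2ak2, the kinase that senses double-stranded RNA, had 27.8 with CTLA-4-Ig, 39.1 with hIgG and 31.4 with vehicle. Over hIgG the log2 ratio of Eif2ak2 was -0.49 with the deposited values. It was -0.587 with quantile normalization, -0.588 with cyclic loess and -0.595 with scaling by jointly detected probes, just past 1.5-fold lower. The chaperone genes of the ATF6 and XBP1 arms, which respond to unfolded protein, gave a median of -0.06 over hIgG and 0.04 over vehicle over 20 genes. Within this list Sel1l, an adaptor of the degradation complex, had 131 with CTLA-4-Ig, 108 with hIgG and 91.0 with vehicle. Derl3, at low signal, had 2.06 with CTLA-4-Ig, 3.4 with hIgG and 2.6 with vehicle. Factors that regulate the serine pathway, 16 detected, had medians of 0.09 and 0.04, and Myc, which activates serine synthesis genes, had 73.3 with CTLA-4-Ig, 81.9 with hIgG and 80.8 with vehicle. Proliferation genes, for which serine and one-carbon units are in demand, had medians of -0.01 and 0.03 over 19 genes. Mcm3, a subunit of the replicative helicase, had 221 with CTLA-4-Ig, 174 with hIgG and 178.5 with vehicle, whereas Aurkb, a mitotic kinase, had 302 with CTLA-4-Ig, 368 with hIgG and 368 with vehicle. Grhpr, which acts on hydroxypyruvate next to the serine pathway and is listed with the relatives of the 10 genes, had 128 with CTLA-4-Ig, 105 with hIgG and 95.1 with vehicle.

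**Figure D3:**
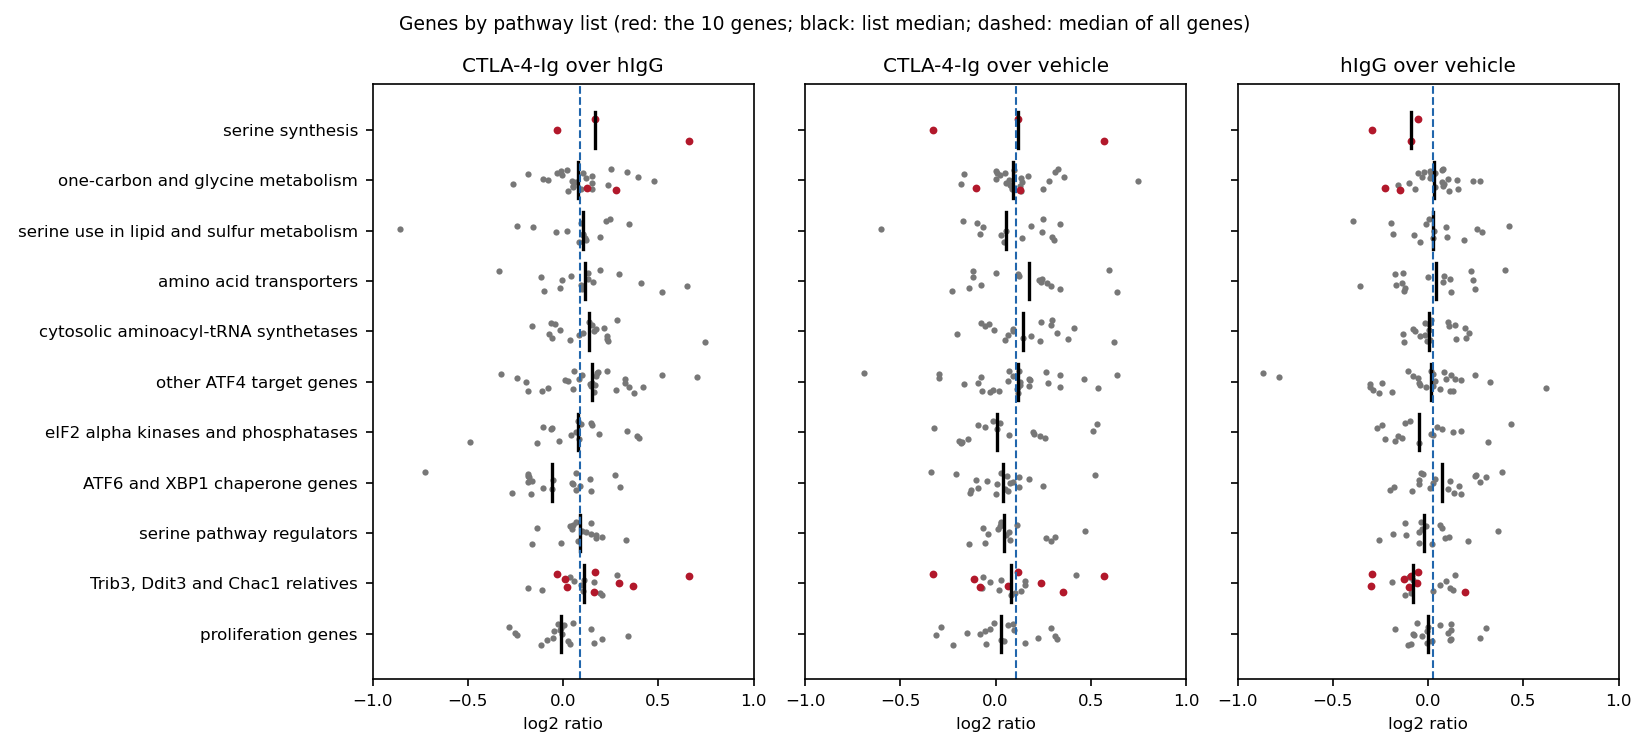
Log2 ratio of each detected gene (points) by pathway list, in 1 panel for each pair of arrays, with the 10 genes in red, the median of each list as a black bar and the median of all genes as a dashed line. List medians lie within -0.06 to 0.17 over hIgG, and the points spread to both sides of the dashed line in every list of more than 3 genes.

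The genes whose pair of ratios was nearest to that of Phgdh came from outside the pathway. Likeness was the Euclidean distance between the pairs of log2 ratios against each control, from 3 arrays, over the same brighter genes. The 6 nearest were Grem1, a secreted BMP antagonist (distance 0.03), Nhp2, a protein of the H/ACA ribonucleoproteins (0.05), Men1, the tumour suppressor menin (0.06), Ppfibp1, a liprin (0.07), Tgfb1i1, a focal adhesion adaptor also called Hic-5 (0.08), and Rgs16, a regulator of G protein signalling (0.09). Grem1 had normalized signals of 166.7 on the CTLA-4-Ig array, 104.7 with hIgG and 114.8 with vehicle. Tgfb1i1 had 130.4 with CTLA-4-Ig, 84.0 with hIgG and 92.5 with vehicle. By the smaller of the ratios, Phgdh stood between Men1 (0.59) and Ufd1 (0.57), a cofactor of protein extraction from the endoplasmic reticulum. None of the other 9 genes of the set was near Phgdh by this distance, the closest being Atf4 at place 787 of 8418, then Trib3 at 1152, Chac1 at 1524 and Shmt2 at 1540, with Psat1 at 7884.

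The choice of scaling moved the 10 genes together with all genes. Quantile normalization, cyclic loess and scaling by the probes detected on all arrays each brought the median of all genes close to 0 over hIgG and over vehicle (0.004, 0.005 and -0.015 over hIgG), and the log2 ratio of Phgdh over hIgG became 0.60, 0.58 and 0.56. The last 2 are under the log2 limit of 0.585, so Phgdh was called over hIgG with the deposited scaling and with quantile normalization and was just short of the call with the other 2. The ratio of Chac1 over vehicle was 0.01, -0.0018 and -0.04 in these settings and that of Asns over hIgG was -0.0092, -0.02 and -0.09, so neither of these small differences had a settled sign. The same held for Ddit3 over hIgG, at -0.01, -0.0081 and -0.08 in these settings. With the deposited values and with each of these 3 scalings, 9 of the 10 genes were below the median of all genes for hIgG over vehicle. Scaling by the jointly detected probes could not change that count. With normexp 6 of the 10 were above the median of all genes, Chac1 over hIgG was -0.06 and hIgG over vehicle was 0.06 for this gene.

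**Figure D4:**
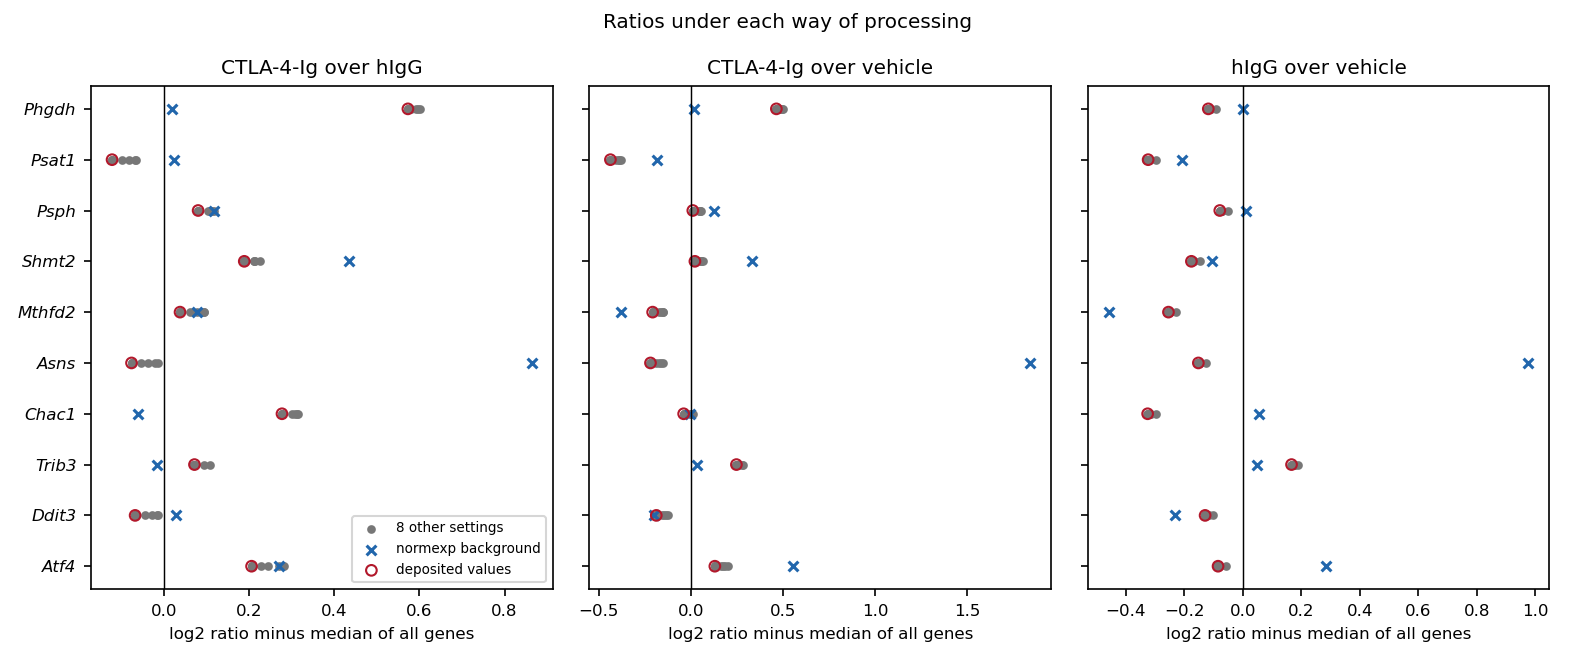
Log2 ratio of each of the 10 genes minus the median of all genes (x axis), for the deposited values (red circles), 8 other settings (grey points) and normexp background correction (blue crosses), in the 3 comparisons. The grey points stay close to the red circles, but for several settings this was fixed in advance. Each gene had 1 probe, and scaling an array by a constant drops out once the median of all genes is subtracted. The crosses bring Phgdh to near 0 and place Asns far to the right, at 0.86, 1.84 and 0.98.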

How the data were processed

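RNA of 3 cultures was amplified, labelled with Cy5 and hybridized to 1 mouse oligo array each. Per the file headers, the scanner gave a median intensity and a background for every spot. The deposited values are background-subtracted normalized signal, linear and scaled by the authors to a median of 25, and undetected probes are empty. The genome build and scanner software version are not given in the sources used here.

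Samples were grouped by the treatment in their labels, with 0 columns unused. Of 23473 probes 20690 were named through the platform annotation and RefSeq (20556 by gene identifier, 9 by accession, 125 by platform symbol) and 2783 were not named. Genes were averaged on the log2 scale over probes detected on all 3 arrays (15625 genes; 81.4% to 84.0% of probes were detected per array). The blank rule was inferred: intensities less the mean of 384 blanks, trimmed by 5% at each end, gave the deposited signals of the 10 genes within 0.05. Ratios were computed in pandas 2.3.3 and numpy 2.4.6 (Python 3.11.15), plots with matplotlib 3.10.9, and alternatives with limma 3.58.1 in R 4.3.3. Scripts were tested on simulated data. Positive control spots, 24 of a kind, had a CV of 6.17% to 13.3% within an array, which covers no difference between cultures, and the single array per condition limits the precision.

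The members and lists were chosen with earlier results of these data known. The rule named all 10 genes, in each list the 2 highest and 2 lowest over both controls and any gene past 1.5-fold, and the 6 genes nearest to Phgdh; the main ones are printed. Ufd1 and the spots around each probe were added after the values were seen.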

Additional observations from a re-analysis of the deposited data

How the results depend on the processing

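No paired analysis was possible because only 1 array was run for each treatment. The alternatives were signals rebuilt from the scanner intensities, normexp background with an offset of 50, cyclic loess, quantile normalization, scaling to the 75th percentile, scaling to the median of jointly detected probes, the brightest probe, a mean signal of at least 25, log2(signal + 1), and limits of 5/4 and 2-fold. Of the values for whole comparisons, 85 counted as unmoved and 8 moved. A median counted as unmoved when it shifted by less than 0.17, and a count when it was equal or within 1.5-fold. Some settings, such as the brightest probe with 1 probe per gene, could not change the 10 genes. Their median for CTLA-4-Ig over vehicle went from 0.09 to -0.012 when scaled to jointly detected probes, and still counted as unmoved. The count of the 10 genes at least 1.5-fold higher for CTLA-4-Ig over hIgG (1, Phgdh) became 0 with cyclic loess, 0 with the median over jointly detected probes, 0 at 2-fold and 2 at 5/4. Against vehicle the count of higher genes (0) became 1 with normexp and 2 at 5/4, and the count of lower genes (0) became 1 at 5/4. For hIgG over vehicle the count of higher genes (0) became 1 with normexp. The gene called with normexp was Asns, with a log2 ratio over vehicle of 1.84 for CTLA-4-Ig and 0.98 for hIgG. Over all genes, 531 were higher and 176 lower for CTLA-4-Ig over hIgG, against 268 and 297 after quantile normalization, 286 and 312 after cyclic loess, 323 and 282 when scaled to jointly detected probes, 305 and 105 with normexp, 63 and 40 at a mean signal of at least 25, and 831 higher with log2(signal + 1). Over vehicle, 694 were higher and 155 lower for CTLA-4-Ig, against 312 and 316, 293 and 324, 401 and 248, 718 and 242 in the first 4 of these settings, and 61 and 13 at a mean signal of at least 25. For hIgG over vehicle, 303 were higher and 250 lower, against 488 higher with normexp, 30 and 27 at a mean signal of at least 25, and 475 and 379 with log2(signal + 1).

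A value of a single gene counted as reversed when its sign changed from a deposited log2 ratio of at least 0.17 in size. Otherwise it counted as unmoved when it shifted by less than 0.17, the SD of hIgG over vehicle. By this rule 924 were unmoved, 69 moved and 33 were reversed. All but 1 of the 33 came with normexp, in which the background column follows the spot. Sign changes of smaller ratios, such as Asns and Ddit3 over hIgG, are not among the 33. For CTLA-4-Ig over hIgG the log2 ratio with normexp was -0.061 for Chac1, -0.00094 for Aars, -0.019 for Amt, 0.58 for Aurkb, -0.0050 for Cth, -0.040 for Eif2b2, -0.034 for Grhpr, -0.021 for Mcm3, -0.015 for Men1, -0.0079 for Rgs16, -0.027 for Sel1l, -0.0078 for Slc7a3, -0.040 for Srr, -0.0078 for Tgfb1i1 and 0.0033 for Tyms. With quantile normalization Avil was -0.011. For CTLA-4-Ig over vehicle with normexp it was -0.00069 for Aars, -0.0077 for Amt, 1.28 for Aurkb, 0.0014 for Avil, -0.0012 for Cth, -0.24 for Ddit4, 0.044 for Eif2ak2, -0.031 for Eif2b2, -0.090 for Grhpr, -0.0099 for Rgs16, -0.0046 for Slc7a11, -0.013 for Slc7a3, -0.048 for Srr and -0.015 for Ufd1. For hIgG over vehicle with normexp it was 0.055 for Chac1, 0.017 for Ppfibp1 and -0.0103 for Serinc4. The cause was not tested. With 1 array per condition, no setting gives an error for any of these ratios, and the spots of Phgdh and Trib3 were the dimmest of the 10 over the blanks.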
